A study of Mus musculus with 12 samples.

Results

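The enzymes that write and erase 5-methylcytosine in DNA, together with the core of Polycomb repressive complex 2 (PRC2), were followed through basophil maturation. The members, chosen by gene symbol, were the DNA methyltransferases Dnmt1, Dnmt3a and Dnmt3b, the TET dioxygenases Tet1, Tet2 and Tet3, and the PRC2 genes Ezh1, Ezh2, Eed and Suz12. These are 10 of the 32227 genes in the count table, and all 10 passed the filter on low counts that left 15083 genes to test. Each symbol matched 1 protein-coding gene in the GENCODE annotation of the mouse genome (GRCm38).

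RNA was measured by bulk sequencing in 12 libraries from wild-type C57BL/6J mice, in 4 groups of 3. The marrow groups were sorted from bone marrow (BM), among CD200R3+ cKit- cells. They were CD34+ basophil progenitors (BaPs, CLEC12A-high), CD34- pre-basophils (CLEC12A-high, CD9-low; named immature basophils in the sample labels) and mature basophils (CLEC12A-low, CD9-high), and the fourth group was mature basophils of the same surface phenotype from the spleen. No group carried a transgene or received a treatment, each library pooled the cells of 4 animals, and no source used here gives the age of the animals. The libraries came from a single experiment, so p-values measure the spread between pools within it.

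DNMT1 copies methylation marks onto the new strand after DNA replication, with UHRF1 guiding it to hemimethylated sites, whereas DNMT3A and DNMT3B set marks at unmethylated sites. TET enzymes oxidise 5-methylcytosine, which starts its removal. PRC2 methylates histone H3 at lysine 27 through one of the alternative catalytic subunits EZH1 and EZH2, with EED and SUZ12 required for activity. In blood cells these genes are known as regulators of self-renewal and differentiation, and several of them, TET2 and DNMT3A among them, are recurrently mutated in myeloid disease. EZH2 is known to be abundant in dividing cells and EZH1 in resting ones.

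Library totals ran from 3596108 to 8151030 counts, so that 1 count stood for 0.0968 to 0.318 CPM, the normalised read count scaled to library size. All 9 basophil markers examined, Mcpt8, Prss34, Fcer1a and others, were present in every group, and their summed level was 61985 to 71531 CPM for pre-basophils, 13141 to 16082 for mature cells from BM and 7247 to 8117 for those from spleen. In the CLEC12A-high libraries Prss34 and Mcpt8 made up most of the sum (49584 and 12340 CPM in pre-basophil replicate 1). At an edgeR adjusted p under 0.05, 5 of the 9 were higher and 0 lower in pre-basophils than in BM mature basophils (27.3% of all genes differed). Between BaPs and BM mature basophils 3 were higher and 3 lower in BaPs (45.0% of all genes). The sum thus does not describe every marker. The mast cell markers stayed at or below 6.49 CPM in sum. BaP replicate 3 stood apart from all other libraries. It held 522 CPM of T and NK cell markers against 15.1 to 43.6 elsewhere and 2408 CPM of erythroid markers against 5.26 to 261. Stem or progenitor markers reached 132 CPM against 21.0 to 45.3, monocyte or macrophage markers reached 309.7 against 38.7 to 240.4, and its basophil sum was 25493 CPM against 63283 and 68672 in the other BaP libraries. Of the monocyte or macrophage markers, Ccr2 alone held 176 to 215 CPM in the BM mature libraries, and Ly6c2 held 178 CPM in BaP replicate 3 against 2.80 to 13.3 elsewhere. For members called in a comparison with BaPs, the log2 difference is therefore given with and without BaP replicate 3. Other BaP values, among them the group means and the ratios, include it unless stated. The 16 markers of cycling cells summed to 1708 to 3069 CPM for BaPs, 1953 to 2454 for pre-basophils, 324 to 417 for mature cells from BM and 172 to 198 for those from spleen. The neutrophil markers were also higher in sum in the CLEC12A-high libraries (1005 to 2663 CPM) than in the mature ones (67.2 to 158). Mpo made up 1792 and 1402 CPM of it in BaP replicates 1 and 2, where Retnlg (3.82 and 10.6) was lower than in BM mature libraries (21.3 to 30.6). By edgeR, 8 of the 9 tested were called higher in pre-basophils than in BM mature basophils and 0 lower (16.3% of all genes were higher). B cell markers were highest in the spleen (116 to 195 CPM against 32.1 to 75.4). Whether these markers had a part in the differences below was not tested, and in bulk RNA fewer expressing cells and less RNA per cell cannot be told apart.

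**Figure D1:**
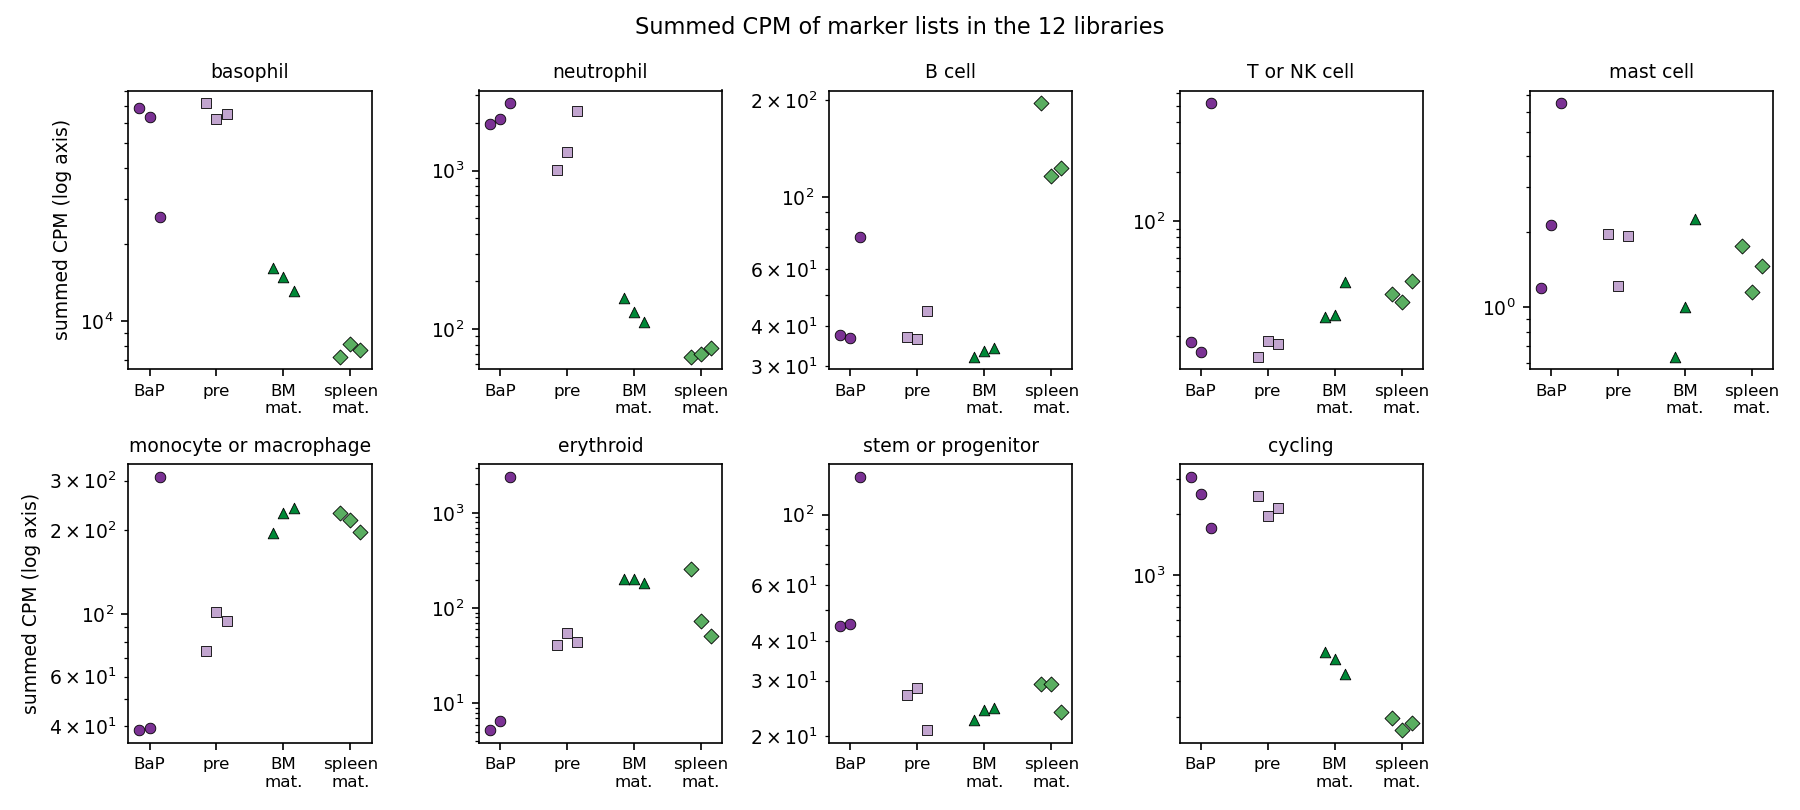
Summed CPM (log axis) of 9 lists of marker genes in each of the 12 libraries, 1 point per library, for BaPs, pre-basophils (pre), BM mature and spleen mature basophils, replicates 1 to 3 from left to right. Cycling markers lay at 1708 CPM or more in the 6 CLEC12A-high libraries and at 417 or less in the 6 mature ones, and BaP replicate 3 stood apart for T and NK cell, erythroid and basophil markers.

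All members are single protein-coding loci. On GRCm38 the methyltransferase genes lie on chromosome 9 at 20907209 to 20959888 (Dnmt1), chromosome 12 at 3806007 to 3914443 (Dnmt3a) and chromosome 2 at 153649450 to 153687730 (Dnmt3b). The TET genes lie on chromosome 10 at 62804570 to 62908996 (Tet1), chromosome 3 at 133463679 to 133545139 (Tet2) and chromosome 6 at 83362373 to 83459084 (Tet3). The PRC2 genes lie on chromosome 11 at 101191115 to 101226463 (Ezh1), chromosome 6 at 47530139 to 47595341 (Ezh2), chromosome 7 at 89954654 to 89980983 (Eed) and chromosome 11 at 79993106 to 80034123 (Suz12). Dnmt3b has a close duplicate in rodents, Dnmt3c, which held 0 to 3 counts per library, and reads that match both cannot be assigned with certainty. Dnmt3a has a processed pseudogene, Dnmt3a-ps1, that may share reads with it. Antisense genes reach exons of Dnmt3a, Tet2 and Eed, and they held 6, 32 and 55 counts, respectively, in all 12 libraries together. Genes on the opposite strand also reach exons of Dnmt3b, Ezh2 and Suz12, but have no row in the table used here. Some partner genes named further below are overlapped by genes with more counts. Protein-coding genes on the opposite strand reach exons of Cbx7, Phf1, Rnf2 and Rbbp7, and held 7111, 3682, 1961 and 1100 counts, respectively.

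Except for Dnmt3b, the promoters of the members called in a comparison below are shown, 5 in all. The sequences of 3 of them, Dnmt1, Ezh2 and Suz12, carry a match to the E2F motif that is known from genes of the dividing cell. These 3 were higher in BaPs than in BM mature basophils, but so was Dnmt3b, whose window carries no such match. Each run is the RefSeq promoter on GRCm38.p6, from 250 bases before to 50 bases after an annotated start, written 5′ to 3′ on the strand of the gene. Capitals mark the words TTTCCCGC, TTTCGCGC, TTTGCCGC or TTTGGCGC on either strand.
Dnmt1 (chr9:20952574-20952873, minus strand): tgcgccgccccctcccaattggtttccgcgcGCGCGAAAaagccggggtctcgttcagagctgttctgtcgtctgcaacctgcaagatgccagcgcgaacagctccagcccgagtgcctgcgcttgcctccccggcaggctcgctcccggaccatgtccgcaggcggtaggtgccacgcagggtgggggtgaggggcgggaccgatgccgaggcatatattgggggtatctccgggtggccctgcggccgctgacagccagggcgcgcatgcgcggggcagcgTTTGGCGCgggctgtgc
Ezh2 (chr6:47594981-47595280, minus strand): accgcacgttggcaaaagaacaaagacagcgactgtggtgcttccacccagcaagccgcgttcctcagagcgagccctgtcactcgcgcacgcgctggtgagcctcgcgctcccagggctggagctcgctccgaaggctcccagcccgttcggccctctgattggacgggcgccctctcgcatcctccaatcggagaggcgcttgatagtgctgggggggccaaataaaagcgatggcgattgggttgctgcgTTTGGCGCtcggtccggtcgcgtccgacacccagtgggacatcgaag
Suz12 (chr11:79992856-79993155, plus strand): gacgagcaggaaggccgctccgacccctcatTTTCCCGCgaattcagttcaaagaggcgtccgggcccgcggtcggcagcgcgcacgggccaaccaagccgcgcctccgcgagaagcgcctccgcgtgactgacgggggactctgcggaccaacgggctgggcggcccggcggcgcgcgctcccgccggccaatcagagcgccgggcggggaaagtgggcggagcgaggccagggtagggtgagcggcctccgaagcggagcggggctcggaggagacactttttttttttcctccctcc
Ezh1 (chr11:101226414-101226713, minus strand): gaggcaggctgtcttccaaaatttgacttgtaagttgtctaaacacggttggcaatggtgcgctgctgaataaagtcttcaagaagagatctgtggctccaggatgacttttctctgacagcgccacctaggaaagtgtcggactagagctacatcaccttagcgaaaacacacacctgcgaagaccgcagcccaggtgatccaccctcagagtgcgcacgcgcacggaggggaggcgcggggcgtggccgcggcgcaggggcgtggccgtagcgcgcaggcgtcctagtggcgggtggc
Tet2 (chr3:133544341-133544640, minus strand): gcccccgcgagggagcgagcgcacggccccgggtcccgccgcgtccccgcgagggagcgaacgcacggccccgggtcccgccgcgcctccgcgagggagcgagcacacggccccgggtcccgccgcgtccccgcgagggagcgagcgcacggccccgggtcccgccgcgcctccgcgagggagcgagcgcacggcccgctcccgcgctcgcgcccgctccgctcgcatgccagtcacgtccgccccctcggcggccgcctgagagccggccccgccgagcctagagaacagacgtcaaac

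The table of promoters holds 14 windows for the 10 members, and 3 of these windows carried an E2F word, against 2.26% of all 32851 windows. Dnmt1 carried one with its first base 219 bases before and another 33 bases after the start of the window shown, and its 2 other windows carried none. Ezh2 carried one 3 bases after its start and Suz12 one 219 bases before it. The runs of Ezh1 and Tet2 hold no capitals, and neither did any window of the other 5 members. The cell cycle element TTTGAA, searched on both strands and present in 17.9% of all windows, was found in a window each of Dnmt1, Dnmt3b, Eed and Suz12. A GATA word on either strand, meaning the letters AGATAA, the letters AGATAG, the letters TGATAA or the letters TGATAG (29.8% of all windows), was found in a window each of Dnmt1 and Ezh2. CpG dinucleotides numbered 2 to 57 in the members' windows, with a median of 7.0 over all windows. Every E2F word searched contains a CpG, so the 2.26% of all windows is not a share at like CpG content. A match describes the sequence and does not show that a factor binds there.

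Across the 4 groups, 8 of the 10 members differed by edgeR's quasi-likelihood F test at an adjusted p under 0.05, where 57.8% of all tested genes did. The exceptions were Dnmt3a (adjusted p 0.343) and Tet3 (adjusted p 0.121). Between pre-basophils and BM mature basophils, 3 of 10 members were called, against 27.3% of all genes. Dnmt1 and Ezh2 were higher in pre-basophils (16.3% of all genes were) and Ezh1 was lower (11.0% were). Between BaPs and pre-basophils 2 members were called (7.08% of all genes). Dnmt3b was higher in BaPs (2.79% of all genes) and Tet2 lower (4.29%). Between spleen and BM mature basophils Tet2 alone was called, lower in the spleen (4.67% of all genes were lower, 3.16% higher, 7.83% called in all). Over the whole span within bone marrow, from BaPs to BM mature basophils, 6 members were called (45.0% of all genes). Dnmt1, Ezh2, Suz12 and Dnmt3b were higher in BaPs (25.3% of all genes) and Ezh1 and Tet2 were lower (19.7%). This last comparison shares libraries with the first pair and adds no independent evidence to them. The share of members called was thus 30%, 20%, 10% and 60% in these 4 comparisons, where 1 member is 10%. The direction of each of these called changes was the same under every scaling tried.

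**Figure D2:**
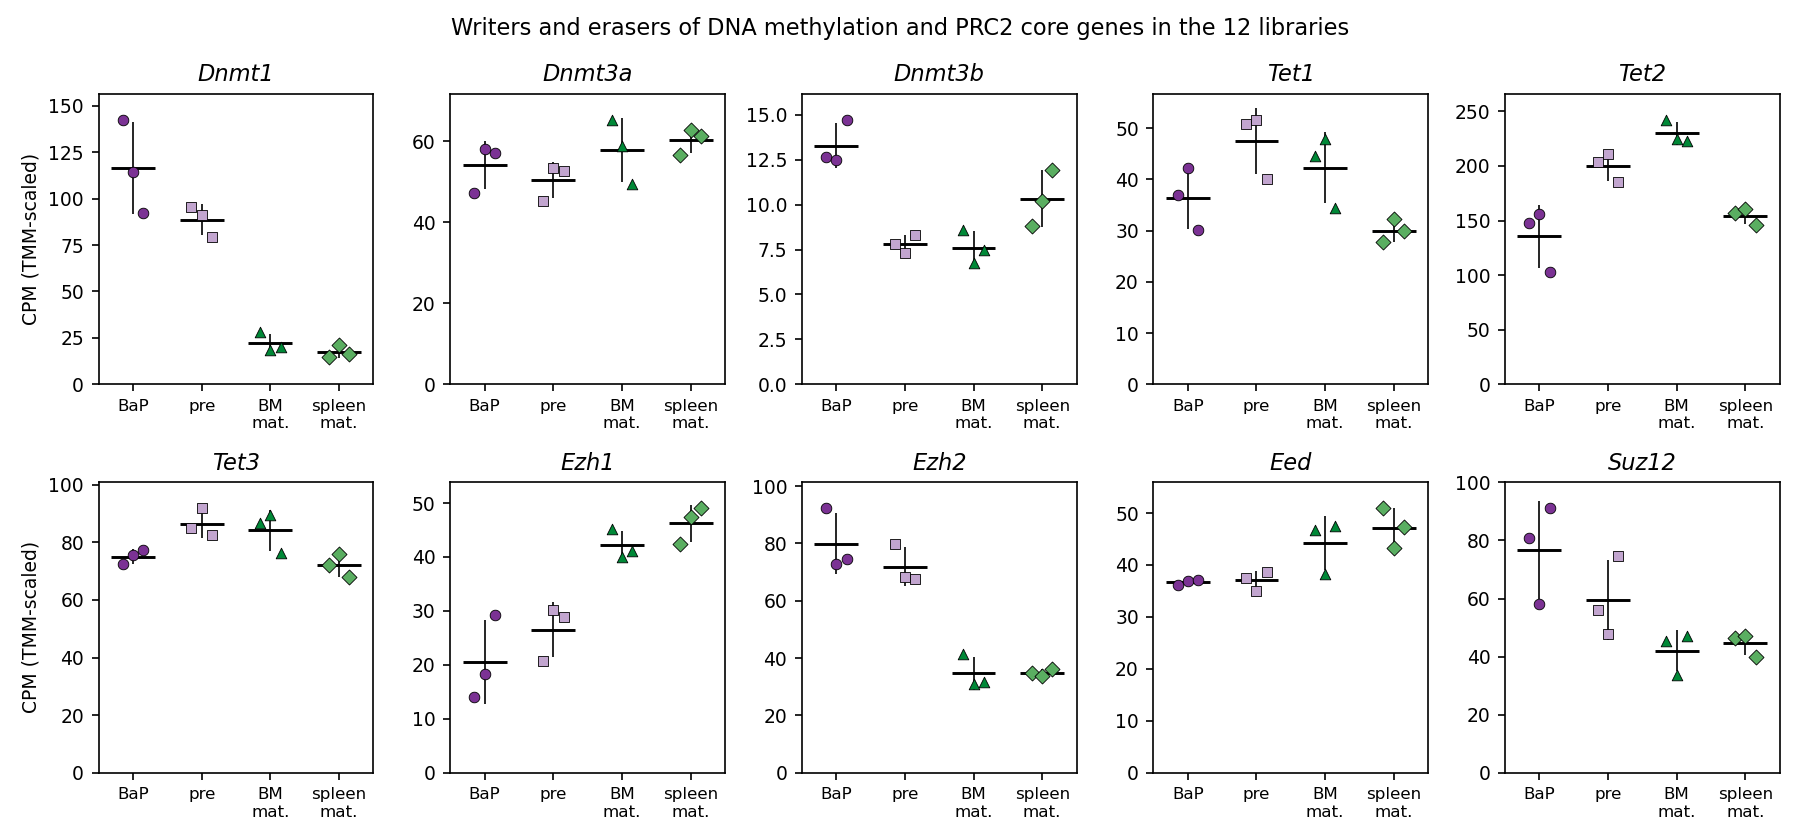
CPM of the 10 members in each of the 12 libraries (linear axes from 0), 1 point per library in replicate order, with the group mean as a horizontal line and ± 1 SD as a vertical line. Dnmt1 and Ezh2 separate the 6 CLEC12A-high libraries from the 6 mature ones, Ezh1 runs the opposite way, and Dnmt3a and Tet3 stay within narrow ranges.

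Dnmt1 showed the widest range of the members. Its level was 142, 115 and 92.5 CPM in the BaP libraries, 95.3, 91.3 and 79.2 CPM in the pre-basophil ones, 28.0, 18.5 and 20.2 CPM in the BM mature ones and 14.7, 21.1 and 16.2 CPM in those from spleen. The lowest CLEC12A-high library thus lay above the highest mature library, while BaPs overlapped pre-basophils and spleen overlapped BM. Pre-basophils held 4.01-fold the level of BM mature basophils (95% confidence interval 2.99 to 5.37), a log2 difference of 2.003 with a standard error (SE) of 0.20 and an edgeR adjusted p of 1.17e-05. BaPs stood 2.395 log2 units above BM mature basophils (edgeR adjusted p 8.34e-07) and 2.56 without BaP replicate 3. The difference between BaPs and pre-basophils was 0.39 and did not pass the test (edgeR adjusted p 0.215), but it was 0.55 and passed without BaP replicate 3 (adjusted p 0.0281), and 0.58 with scaling by library size alone (adjusted p 0.0376). Spleen mature basophils differed from BM mature basophils by -0.35 (95% interval -0.79 to 0.09). Each of the 16 cycling markers, given above, was also called higher in pre-basophils than in BM mature basophils (16.3% of all genes were), with a median log2 difference of 2.86. Between spleen and BM mature basophils 8 of the 16 were called lower in the spleen (4.67% of all genes were), with a median of -0.93. Dnmt1 was not called there (edgeR adjusted p 0.318).

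Dnmt3a, a de novo methyltransferase, did not pass the test over the 4 groups. Its group means were 54.1 ± 5.92 CPM (SD, n = 3) for BaPs, 50.4 ± 4.45 for pre-basophils, 57.8 ± 7.96 for mature cells from BM and 60.2 ± 3.18 for those from spleen. The single libraries ran from 45.3 to 65.2 CPM, and the groups overlapped except that every spleen library lay above every pre-basophil library. The log2 difference between pre-basophils and BM mature basophils was -0.19, with a 95% interval from -0.48 to 0.10.

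Dnmt3b, the other de novo enzyme, was highest in BaPs. It measured 12.7, 12.5 and 14.7 CPM in the BaP libraries, 7.83, 7.30 and 8.32 CPM in the pre-basophil ones, 8.59, 6.76 and 7.49 CPM in the BM mature ones and 8.80, 10.2 and 11.95 CPM in those from spleen. All BaP libraries exceeded all others, and the spleen libraries exceeded those of BM mature basophils. BaPs held 1.70-fold the level of pre-basophils (95% interval 1.28 to 2.27; log2 0.77, SE 0.19, edgeR adjusted p 0.0303), yet the call was lost without BaP replicate 3 (0.69, adjusted p 0.0502) and without any one of the pre-basophil libraries (adjusted p 0.0857 to 0.119). It was also lost with no filter on low counts (adjusted p 0.067) and in a fit of only the 2 groups (adjusted p 0.0695). Against BM mature basophils the difference was 0.82 (edgeR adjusted p 0.00371), and it passed without BaP replicate 3 (0.74, adjusted p 0.0106). The spleen difference of 0.45 did not pass (adjusted p 0.174). These values rest on 94 to 258 counts per group.

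Among the TET genes, Tet2 had the clearest pattern, with its highest level in BM mature basophils. It measured 148, 156 and 102 CPM in the BaP libraries, 204, 211 and 185 CPM in the pre-basophil ones, 242, 225 and 223 CPM in the BM mature ones and 157, 160 and 146 CPM in those from spleen. All pre-basophil libraries lay above all BaP libraries and below all BM mature libraries, and all spleen libraries lay below all pre-basophil libraries and overlapped those of BaPs. Tet2 was lower in BaPs than in pre-basophils by 0.56 log2 units (edgeR log2 difference -0.56, SE 0.14, adjusted p 0.0312). BaP replicate 3 was the lowest of the 12 libraries, and without it the difference was -0.38 (adjusted p 0.0208). The call was lost without any one of the pre-basophil libraries or without BM mature replicate 1 (adjusted p 0.0581 to 0.12), with scaling by library size alone (adjusted p 0.064) and in a fit of only the 2 groups (adjusted p 0.105). The step from pre-basophils to BM mature basophils did not pass (-0.20, adjusted p 0.315), whereas BaPs and BM mature basophils differed by -0.77 (edgeR adjusted p 0.000606; -0.58 and adjusted p 0.000126 without BaP replicate 3).

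Between the tissues, Tet2 in the spleen stood at 0.670 of its BM mature level (95% interval 0.544 to 0.826; log2 difference -0.58, SE 0.14, edgeR adjusted p 0.0267). Leaving out any one of the 6 mature libraries gave differences of -0.53 to -0.60 but no call (adjusted p 0.0636 to 0.116). The spleen libraries were also those with the most B cell marker RNA, and its part in the Tet2 difference was not tested.

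Tet1 was highest in pre-basophils and lowest in the spleen by its group means, with 37.0, 42.2 and 30.1 CPM in the BaP libraries, 50.9, 51.6 and 40.0 CPM in the pre-basophil ones, 44.6, 47.8 and 34.4 CPM in the BM mature ones and 27.8, 32.2 and 29.9 CPM in those from spleen. Replicate 3 was the lowest library in each of the 3 marrow groups, and every spleen library lay below every BM mature library. The spleen difference was -0.49 and did not pass (edgeR adjusted p 0.0862), but it passed without BaP replicate 3 (-0.49, adjusted p 0.0226) and with the replicate number as a block (-0.48, adjusted p 0.0295), as well as in a fit of only the 2 groups (-0.49, adjusted p 0.0281). None of the 4 comparisons fitted was called for Tet1, although the test over the 4 groups was (edgeR adjusted p 0.017). Pre-basophils and spleen, whose libraries did not overlap, were not among them. Tet3 means were 75.1 ± 2.45 CPM (SD, n = 3) for BaPs, 86.4 ± 4.79 for pre-basophils, 84.2 ± 7.01 for mature cells from BM and 72.1 ± 4.04 for those from spleen, and none of the 4 comparisons fitted was called. Its difference between spleen and BM was -0.22 (95% interval -0.45 to 0.01). Every spleen library of Tet3 lay below every pre-basophil library, a pair that was not fitted.

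The catalytic subunits of PRC2 moved in opposite directions. Ezh2 was at 92.2, 72.8 and 74.7 CPM in the BaP libraries and 79.7, 68.2 and 67.6 CPM in the pre-basophil ones, but at 41.4, 31.0 and 31.8 CPM in the BM mature ones and 34.7, 33.7 and 36.1 CPM in those from spleen. The CLEC12A-high and mature libraries did not overlap, and within each of these sets the groups did. Ezh2 in pre-basophils was 2.07-fold its BM mature level (95% interval 1.68 to 2.56; log2 1.05, SE 0.14, edgeR adjusted p 0.000134). BaPs stood 1.21 above BM mature basophils (edgeR adjusted p 1.49e-05; 1.27 without BaP replicate 3). BaPs and pre-basophils differed by 0.15 (95% interval -0.14 to 0.45), and the 2 mature groups by 0.01 (-0.30 to 0.32).

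Ezh1 rose toward maturity. It measured 14.1, 18.4 and 29.2 CPM in the BaP libraries, 20.7, 30.2 and 28.8 CPM in the pre-basophil ones, 45.2, 40.1 and 41.2 CPM in the BM mature ones and 42.4, 47.4 and 49.0 CPM in those from spleen. Every mature library exceeded every CLEC12A-high library, and BaP replicate 3 lay well above the other BaP libraries. Pre-basophils held 0.634 of the BM mature level (95% interval 0.459 to 0.877; log2 -0.66, SE 0.22, edgeR adjusted p 0.038). This call did not hold without any one of the 3 pre-basophil libraries, the 3 BM mature libraries or spleen mature replicate 2 (-0.51 to -0.74, adjusted p 0.0505 to 0.146), nor with scaling by library size alone (-0.43, adjusted p 0.238). BaPs were lower than BM mature basophils by 0.99 log2 units (edgeR log2 difference -0.99, adjusted p 0.00213), and the difference was -1.36 without BaP replicate 3. With scaling by library size alone it was -0.54 and was not called (adjusted p 0.095). BaPs and pre-basophils differed by -0.34 (adjusted p 0.403), which became -0.71 and passed without that library (adjusted p 0.0158).

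Suz12, the scaffold of PRC2, followed Ezh2 with more spread. Its libraries were at 80.7, 58.0 and 91.0 CPM in the BaP libraries, 56.2, 47.7 and 74.5 CPM in the pre-basophil ones, 45.5, 33.8 and 47.0 CPM in the BM mature ones and 46.4, 47.2 and 40.0 CPM in those from spleen. In all 3 marrow groups replicate 3 was the highest and replicate 2 the lowest. BaPs exceeded BM mature basophils by 0.87 (SE 0.20, edgeR adjusted p 0.00272; 0.73 without BaP replicate 3). The difference of 0.50 between pre-basophils and BM mature basophils did not pass (edgeR adjusted p 0.0767), but with the replicate number as a block it was 0.50 and passed (adjusted p 0.0364, and 0.0126 in a blocked fit of the 9 marrow libraries). It also passed without BaP replicate 2 (0.51, adjusted p 0.0478), BaP replicate 3 (0.51, adjusted p 0.0291) or pre-basophil replicate 2 (0.65, adjusted p 0.045). Library size alone (0.73), repeated TMM with a likelihood ratio test (0.59), no filter on low counts (0.51) and a fit of only the 2 groups (0.49) passed as well (adjusted p 0.0172 to 0.0365). Eed, which binds the methylated histone tail, had a narrow range of means. These were 36.7 ± 0.565 CPM (SD, n = 3) for BaPs, 37.1 ± 1.85 for pre-basophils, 44.2 ± 5.13 for mature cells from BM and 47.2 ± 3.83 for those from spleen. Eed passed the test over the 4 groups (edgeR adjusted p 0.0366), but none of the 4 comparisons fitted was called, and BaPs against spleen, whose libraries did not overlap, was not fitted. BaPs and BM mature basophils differed by -0.27 (adjusted p 0.0881; -0.36 and adjusted p 0.0445 without BM mature replicate 2, -0.32 and adjusted p 0.0469 with upper-quartile scaling, and 0.17 with library size alone).

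**Figure D3:**
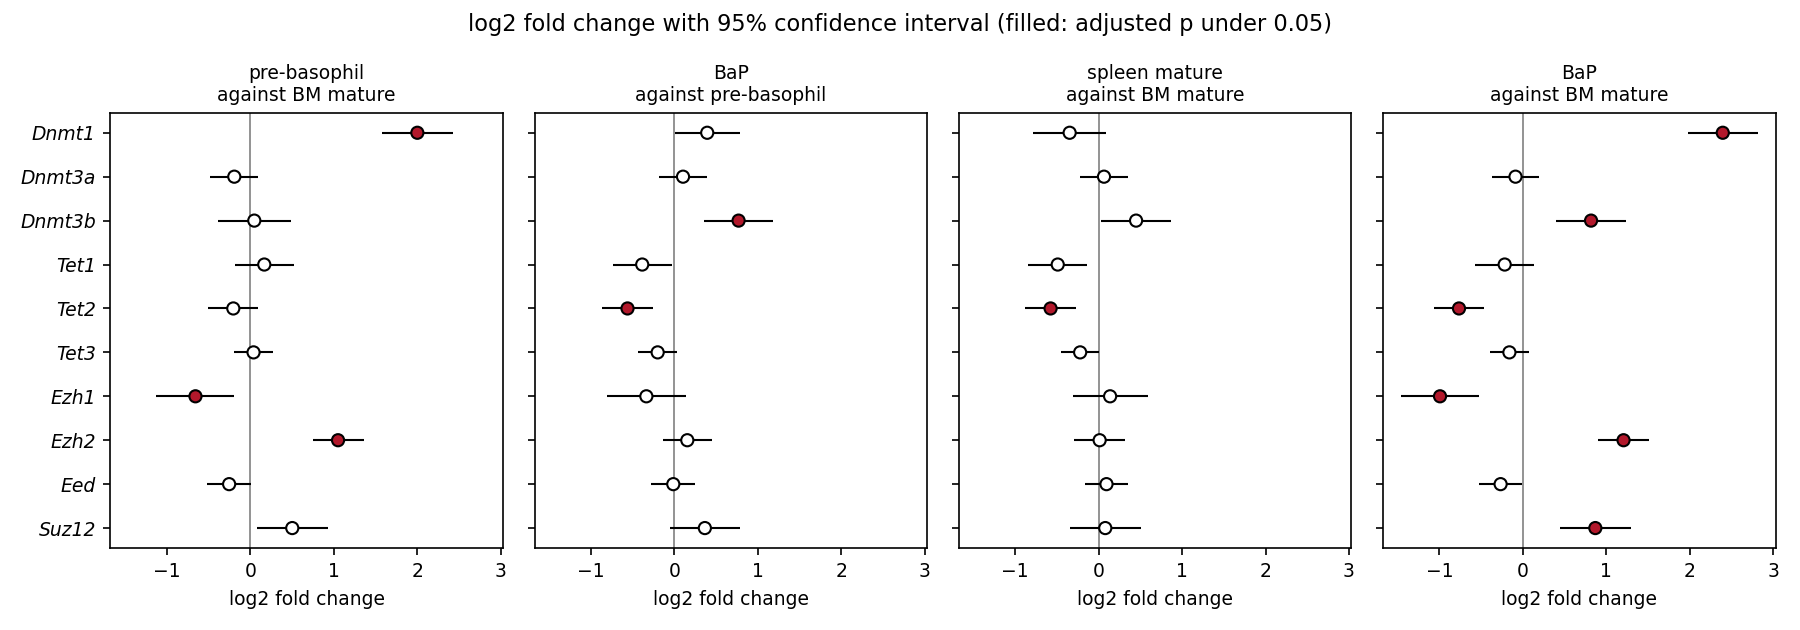
edgeR log2 fold change (x axis) of each member in 4 comparisons, with the 95% confidence interval as a line and filled points for an adjusted p under 0.05. Dnmt1 shows the largest difference, 2.003 in pre-basophils against BM mature basophils and 2.395 in BaPs against BM mature basophils.

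To compare related genes without any scaling between libraries, the ratio of their counts was taken within each library. As gene lengths differ, only differences of the ratio between groups were read. The log2 ratio of Ezh1 to Ezh2 was -2.01 ± 0.67 (SD, n = 3) for BaPs and -1.45 ± 0.43 for pre-basophils, against 0.29 ± 0.14 for mature cells from BM and 0.41 ± 0.11 for those from spleen. It lay between -2.70 and -1.17 in the 6 CLEC12A-high libraries and between 0.13 and 0.49 in the 6 mature ones. The difference of the means, -2.08, corresponds to a ratio 4.21-fold higher in mature basophils (exact two-sided permutation p 0.00216, the smallest that 924 assignments can give; 0.00648 adjusted over the 6 ratio tests). The log2 ratio of Dnmt3a to Dnmt1 was -1.09 ± 0.45 for BaPs and -0.81 ± 0.24 for pre-basophils, against 1.39 ± 0.24 for mature cells from BM and 1.81 ± 0.21 for those from spleen. The difference of -2.55 amounted to 5.84-fold between the sets of 6 (exact two-sided permutation p 0.00216; 0.00648 adjusted). For both ratios this p-value follows from the separation of the libraries already given for Ezh1, Ezh2 and Dnmt1. It adds no independent evidence, and each set of 6 joins different groups. The ratio of Tet3 to Tet2 differed by 0.26 (exact two-sided permutation p 0.113). Between pre-basophils and BM mature basophils alone, the 3 ratios differed by -1.73, -2.20 and 0.24, each with an exact permutation p of 0.1, the smallest that 3 against 3 libraries allow. When same-numbered libraries were paired, the sign-flip permutation gave 0.25 for each ratio between the sets of 6, the smallest that 3 pairs allow.

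**Figure D4:**
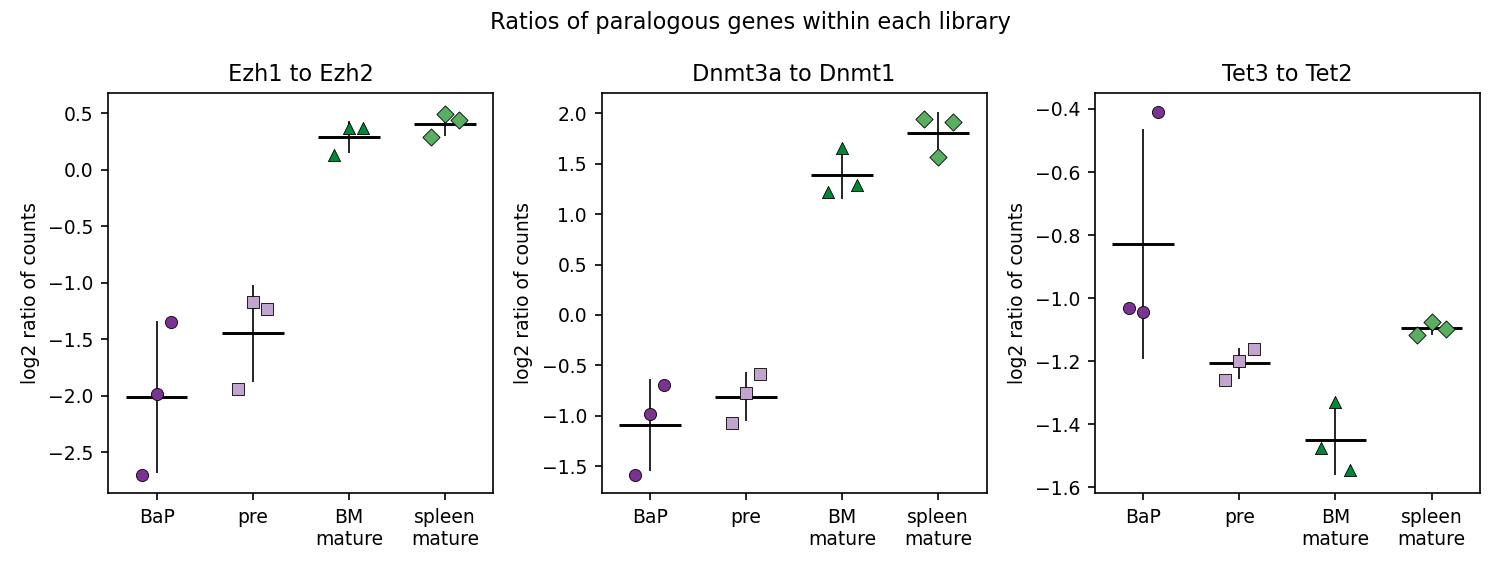
log2 ratio of counts within each library for Ezh1 to Ezh2, Dnmt3a to Dnmt1 and Tet3 to Tet2, 1 point per library in replicate order, with group means (horizontal lines) and ± 1 SD (vertical lines). The first 2 ratios leave a gap between the CLEC12A-high and the mature libraries, and BaP replicate 3 is the highest point of the third.

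The other genes of these pathways were counted in 5 lists. Of the 107 tested genes in all lists, 20 were higher and 20 lower in pre-basophils than in BM mature basophils (37.4% called, against 27.3% of all genes), with a median log2 difference of -0.01 and 0.00 over all genes. Of all genes, 16.3% were higher and 11.0% lower. The 28 tested partners of DNA methylation, which target, read or serve the enzymes, included 6 higher and 5 lower genes with a median of 0.03. The called share was 39.3% against 27.3% of all genes. Only 7 were called without BM mature replicate 2. Uhrf1, which recruits DNMT1, had the largest change of the lists' named genes, from 34.3 ± 1.02 CPM (SD, n = 3) in pre-basophils to 2.998 in BM mature basophils (11.4-fold, 95% interval 7.93 to 16.5; edgeR adjusted p 8.48e-07). Hells, a helicase needed for methylation of repeats, was higher in pre-basophils by 2.24 (edgeR adjusted p 3.18e-05). Zbtb4, a reader of methylated DNA, was lower by 1.02 log2 units (log2 -1.02, adjusted p 0.0094; not called without BM mature replicate 2, -0.82 and adjusted p 0.0548, or with library size alone, -0.80 and adjusted p 0.0585), and Ogt, the glycosyltransferase that binds TET proteins, had a log2 difference of -1.12 (edgeR adjusted p 0.000581).

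Of the 10 tested PRC2 partners, 4 were higher and 1 was lower (50% called, against 27.3% of all genes), with a median of 0.30. The histone-binding subunits Rbbp7 (1.25, edgeR adjusted p 8.64e-05) and Rbbp4 (1.05, edgeR adjusted p 0.000478) were higher in pre-basophils, but both also belong to other chromatin complexes. Phf1, an accessory subunit that recruits PRC2, was the lower one, at 37.1 CPM in pre-basophils against 95.7 in BM mature basophils (-1.36, edgeR adjusted p 0.000226). Jarid2, another accessory subunit, differed by -0.53 without passing (adjusted p 0.0582), but passed with the replicate block (adjusted p 0.0381, and 0.041 in the 9 marrow libraries) and without BaP replicate 2, BaP replicate 3 or spleen mature replicate 1 (adjusted p 0.0199 to 0.0498). It passed too with DESeq2 size factors, upper-quartile scaling and only the 2 groups (adjusted p 0.0107 to 0.0455). The 26 PRC1 subunits, which act with PRC2 by ubiquitinating histone H2A, held 4 higher and 2 lower genes, or 23.1% called against 27.3% of all genes (3 called when replicate 1 of BM mature basophils or replicate 1 or 2 of pre-basophils was left out). Cbx6 was higher by 1.12 (edgeR adjusted p 0.00154) and Kdm2b by 0.77 (adjusted p 0.00173). The reader subunit Cbx7 was lower (-1.41, adjusted p 0.0375) and so was Mga (-0.50, adjusted p 0.0374), although both calls were lost without any one of the pre-basophil libraries and without BM mature replicate 1 or 2 (adjusted p 0.0546 to 0.124), that of Cbx7 also without BM mature replicate 3 (0.0916) and spleen mature replicate 1 or 3 (0.0508 and 0.0515). Library size alone also ended both calls (Cbx7 -1.19, adjusted p 0.101; Mga -0.28, adjusted p 0.37), and repeated TMM with a likelihood ratio test that of Mga (adjusted p 0.066). The core subunits Bmi1 and Rnf2 differed by 0.12 and 0.17 (adjusted p 0.782 and 0.452).

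The 13 tested genes for erasers of H3K27 and H2A marks and their partners, such as Asxl2, held 3 lower and 0 higher genes in pre-basophils by edgeR, as by limma-voom and DESeq2. Of the 13, 7 had an unadjusted edgeR p under 0.05 in either direction. No share of all genes at this looser threshold is given, so that count is not read as an excess. The called share was 23.1% against 27.3% of all genes. Kdm7a, a demethylase, was at 57.5 against 137 CPM (-1.26, edgeR adjusted p 0.000136), Asxl2 had a difference of -0.74 (adjusted p 0.00615; not called with library size alone, -0.51 and adjusted p 0.0929), and Kdm6b, which removes H3K27 trimethylation, one of -0.73 (edgeR adjusted p 0.00076). Its relative Kdm6a differed by -0.17 (adjusted p 0.34). Among 30 genes of other histone methyltransferases and their partners 6 were higher and 9 lower (50% called, against 27.3% of all genes). Suv39h1, which methylates H3K9, was higher by 2.50 (edgeR adjusted p 6e-06) and Nsd2 by 1.34 (edgeR adjusted p 6.18e-06), while Kmt2c (-0.71, adjusted p 0.000587) and Nsd3 (-0.73, adjusted p 0.000229) were lower.

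**Figure D5:**
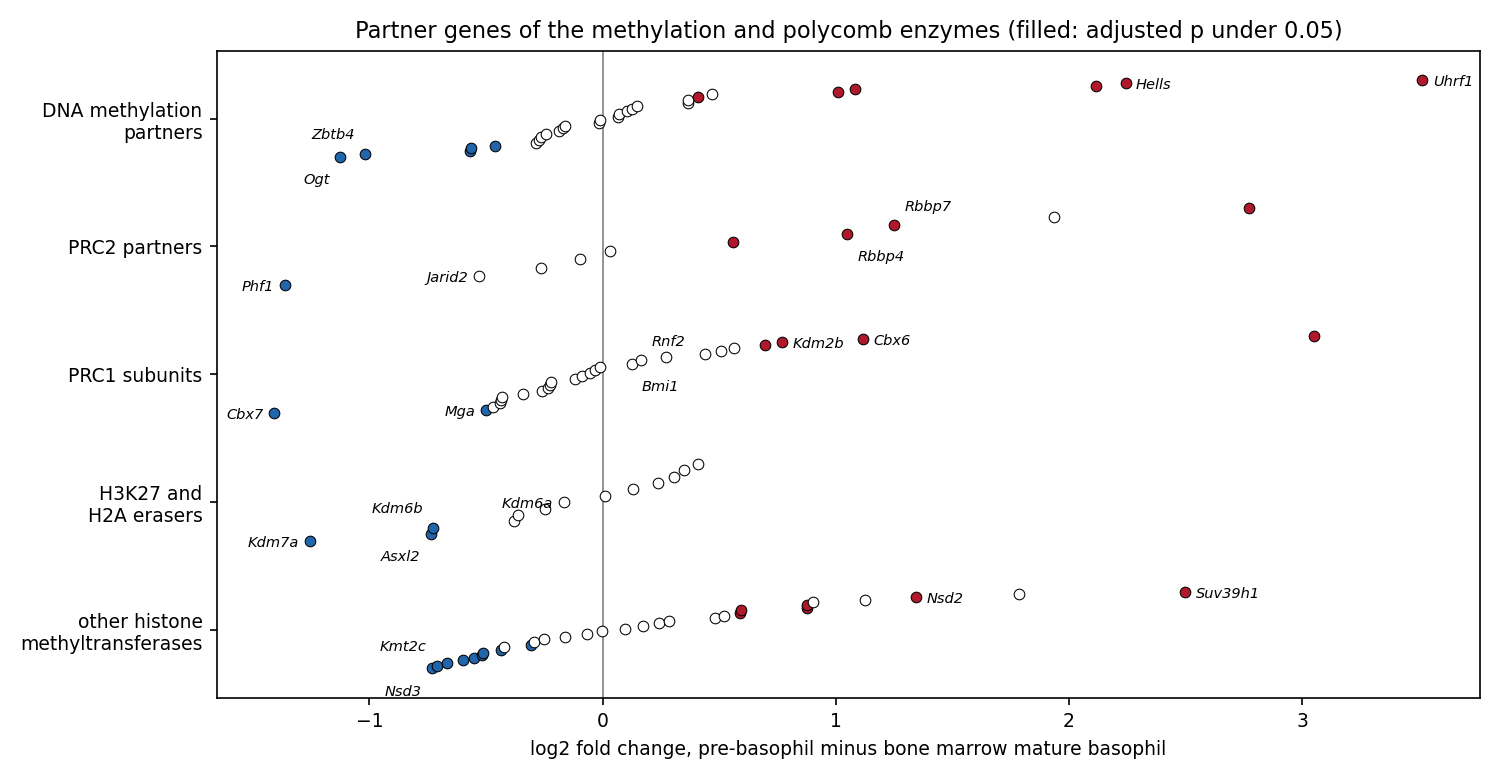
edgeR log2 fold change of pre-basophils against BM mature basophils (x axis) for the tested genes of 5 lists, ordered by value within each list. Filled points passed an adjusted p of 0.05 (red higher and blue lower in pre-basophils), and the genes named in the text for this comparison are labelled, from Cbx7 at -1.41 to Uhrf1 at 3.52.

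At the other steps fewer genes of the lists were called. Between BaPs and pre-basophils there were 6, all higher in BaPs, or 5.61% against 7.08% of all genes. They were named here after their values were seen. They were Hells (0.88, edgeR adjusted p 0.0235), the isocitrate dehydrogenase gene Idh2 (0.83), the PRC2 partners Mtf2 (0.47) and Epop (2.08), Foxk2 (0.85) and Smyd5 (1.45). All but Smyd5 lost their calls without pre-basophil replicate 2 or 3 (adjusted p 0.0684 to 0.188). A fit of only the 2 groups ended the calls of Hells, Idh2, Foxk2 and Mtf2 (adjusted p 0.0725 to 0.103). Mtf2 (edgeR adjusted p 0.0488) was not called under 18 of 22 alternatives, among them the replicate block (adjusted p 0.051), DESeq2 size factors (0.0535), the DESeq2 Wald test (0.0802), no filter on low counts (0.139) and the omission of any library but BaP replicate 3. The number of called genes was 18 without BaP replicate 3, 13 higher and 5 lower, but 3 without BaP replicate 1 or pre-basophil replicate 1 and 1 without pre-basophil replicate 2 or 3. Between spleen and BM mature basophils 5 were higher and 4 lower (8.41% against 7.83% of all genes), and 15 were called with the replicate block. The number was 19 without BaP replicate 3, 5 without pre-basophil replicate 2, 3 without BM mature replicate 2 or 3, 2 without spleen mature replicate 2 or 3 and 0 without BM mature replicate 1 (20 at an unadjusted edgeR p under 0.05, for which no share of all genes is given). Of these genes, named after their values were seen, Gadd45a, a stress gene linked to DNA demethylation, was at 120 CPM in the spleen against 453 in BM (-1.92, edgeR adjusted p 0.00927; -1.62 and adjusted p 0.0504 without BM mature replicate 1). The PRC1 genes Phc1 (0.84) and Phc2 (1.19) were higher in the spleen but not called without any one of the BM mature libraries (adjusted p 0.0511 to 0.149) or without spleen mature replicate 2 or 3 (0.0568 to 0.12). Phc1 was also not called without spleen mature replicate 1 or any one of the pre-basophil libraries (adjusted p 0.0543 to 0.0642), nor by limma-voom (adjusted p 0.0529). Foxk2 was higher too (11.7 against 5.28 CPM) and was called under 20 of 21 alternatives. Rbbp7 was lower (-0.73, edgeR adjusted p 0.0193; adjusted p 0.0547 to 0.0944 without BM mature replicate 1 or 3 or spleen mature replicate 2 or 3). From BaPs to BM mature basophils 35 genes of the lists were higher in BaPs and 25 lower (56.1% against 45.0% of all genes).

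The genes most like each member were found from the root mean square (RMS) difference of log2 CPM over the 12 libraries after centring each gene, among genes of at least 10 CPM. For Dnmt1 these were Cip2a (RMS 0.203) and Snrpd1 (0.205), where Dnmt1 itself varied by 1.21 about its mean. For Ezh2 they were Hnrnpa3 (0.0925) and Baz1b (0.0945), and for Ezh1 Vmn1r218 (0.139) and Stk38 (0.148). For Suz12 they were Atp1b3 (0.135) and B2m (0.151), and for Eed Araf (0.0605) and Stk25 (0.0953). For Tet2 they were Oxr1 (0.0795) and Itm2b (0.09), for Tet1 Arhgap6 (0.131) and Ppp3r1 (0.132), and for Dnmt3b Rpsa-ps9 (0.152), a pseudogene that may share reads with its parent, and Eef1b2 (0.158). These members varied less about their means than Dnmt1: Ezh2 by 0.575, Ezh1 by 0.557, Suz12 by 0.405, Dnmt3b by 0.341, Tet2 by 0.34, Tet1 by 0.296 and Eed by 0.179. A smaller RMS value therefore need not mean a closer match than that of Dnmt1.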

How the data were processed

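The authors trimmed reads with Cutadapt 3.4, aligned them with Bowtie2 2.4.2 to mouse reference RNA and deposited raw read counts per gene symbol. The study's methods name GRCm38 and the labels' processing notes name GRCm39. No molecular identifiers are mentioned, so PCR copies may count separately. Genes were filtered with filterByExpr, scaled by TMM and tested with edgeR 4.0.16 in R 4.3.3 (quasi-likelihood, 12 libraries, Benjamini-Hochberg adjustment over 15083 genes, threshold 0.05). CPM are TMM-scaled. DESeq2 1.42.0 and limma 3.58.1 were alternatives, and the scripts were tested on simulated data. Ratios used a pseudocount of 0.5 and exact permutation. List genes were named by rule: per list, the 2 highest and 2 lowest log2 fold changes of called genes with at least 10 CPM in the higher group (pre-basophils against BM mature basophils), and Uhrf1, Rbbp4, Rbbp7, Jarid2, Kdm6a, Kdm6b, Bmi1 and Rnf2 in any case. The members and lists were chosen with earlier results of these data known. Same-numbered libraries deviated together among the marrow groups (correlations 0.125 to 0.262) and less so with spleen (0.000366 to 0.0899). For pre-basophils and spleen the same-numbered correlations (0.0268 to 0.0899) still exceeded all others (-0.0716 to 0.00341). No libraries were duplicates.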

Additional observations from a re-analysis of the deposited data

Results flagged for a closer look

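The log2 ratio of Tet3 to Tet2 was -0.41 in BaP replicate 3, while the other 5 CLEC12A-high libraries lay between -1.26 and -1.03. Its gap to the nearest library was 0.732 of the whole range, above the 95% critical value of Dixon's test for 6 samples. Chance flags about 1 in 20 such sets, and 6 sets were examined. This library also held more T and NK cell and erythroid marker RNA than any other, whose part in the ratio was not tested.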

How the results depend on the processing

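No called change of a member reversed under any alternative. Dnmt1 and Ezh2 in pre-basophils against BM mature basophils were called under all 22 alternatives, Ezh1 under 14. For uncalled members the sign could turn. With library size alone the log2 differences were 0.031 for Dnmt3a, 0.021 for Tet2 and 0.053 for Kdm6a in pre-basophils against BM mature basophils, 0.0024 for Tet3 and 0.19 for Eed in BaPs against pre-basophils, and 0.34 for Dnmt3a, 0.19 for Tet1, 0.26 for Tet3 and 0.17 for Eed in BaPs against BM mature basophils. That scaling moved the median of all genes to 0.218, 0.228, 0.135 and 0.481 and the share of higher genes among those called from 59.8% to 82.5%, 39.4% to 79.6%, 40.4% to 60.6% and 56.3% to 82.9%, in the order pre-basophils against BM mature, BaPs against pre-basophils, spleen against BM mature and BaPs against BM mature. Upper-quartile scaling gave -0.0057 for Dnmt3b and -0.014 for Tet3 in pre-basophils against BM mature basophils, and repeated TMM with a likelihood ratio test gave -0.040 for Ezh2 in spleen against BM.

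Leaving out 1 library gave -0.020 to 0.13 for Dnmt3b, -0.030 to 0.094 for Tet3 and -0.18 to 0.39 for Bmi1 in pre-basophils against BM mature basophils, -0.057 to 0.018 for Eed in BaPs against pre-basophils, -0.039 to 0.13 for Dnmt3a, -0.060 to 0.13 for Ezh2 and -0.056 to 0.17 for Suz12 in spleen against BM, and -0.20 to 0.0086 for Dnmt3a in BaPs against BM mature basophils. Members called between BaPs and pre-basophils numbered 0 to 3 and list genes 1 to 18. In spleen against BM they numbered 0 to 2 and 0 to 19.

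For BaPs against pre-basophils, no filter on low counts called 1 member and 12 list genes, library size alone 15 list genes, and a fit of only the 2 groups 0 members by edgeR (3 at an unadjusted p under 0.05, for which no share of all genes is given) and 3 list genes. For spleen against BM, only the 2 groups called 2 members and 17 list genes, and the replicate block 2 and 15. Of all genes, 1068 were called between BaPs and pre-basophils, but 1620 with library size alone, 2091 without the filter, 375 with only the 2 groups and 382 to 1831 without 1 library. Between spleen and BM 1181 were called, but 1796 without the filter, 2340 with only the 2 groups and 241 to 2653 without 1 library. The replicate block in the 9 marrow libraries was chosen after seeing the data. With same-numbered libraries paired as a block, the ratio differences were -2.08 and -2.55, with an exact sign-flip p of 0.25, the smallest that 3 pairs can give. Beyond the changes given with the results, the block changed no other call of a named gene. The causes of these changes were not tested. Dnmt3b rests on 94 to 258 counts per group, and no limit of detection by depth was computed.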
